A study of Mus musculus with 4 samples.

Results

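H3K27ac, the acetylation of lysine 27 of histone H3 found at active promoters and enhancers, was examined at 37 collagen genes among the 21887 protein-coding genes of the mouse annotation. The genes were chosen by symbol: all protein-coding genes named as a collagen alpha chain (Col, a type number, a, a chain number) apart from the 7 cartilage collagens Col2a1, Col9a1, Col9a2, Col9a3, Col11a1, Col11a2 and Col27a1. The rule reads only symbols and no measured value. The genes comprised 7 fibrillar collagens, 8 basement membrane collagens, 6 type VI collagens, 6 fibril-associated collagens (FACIT), 4 transmembrane collagens, 2 network-forming type VIII collagens, Col10a1 of hypertrophic cartilage, Col7a1 of anchoring fibrils and 2 others (Col26a1 and Col28a1). The design asked how the mark differs in chondrocytes that lack Hdac3, a deacetylase that removes acetyl groups from histones.

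Both libraries came from primary chondrocytes of C57Bl/6 mice cultured outside the animal, and the labels state a micromass format (dense spots of cells that lay down matrix) for the Cre culture. Cells given an adenovirus coding for Cre recombinase are labelled hdac3-knockout and are called Cre here. Cells given an adenovirus coding for GFP are labelled wild-type, served as the control and are called GFP here, so adenoviral transduction was common to both groups. Each group had 1 H3K27ac library, and 2 input libraries were not analysed here. The sources used here do not give the allele that Cre recombines, the number or age of the animals, or the time between transduction and harvest. A peak list of a histone mark does not measure Hdac3, so the deletion itself was not checked. With 1 library per group the values below have no replicate check and no test, and every difference is one between these libraries.

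Each library had its own deposited list of peaks, regions where the authors' caller found more fragments than its local expectation. A peak was assigned to a collagen gene when it overlapped the annotated gene or the 10 kb on either side. The covered length is the number of bases under such peaks, the summit pileup is the number of fragments stacked at a peak's highest point, and the fold is the authors' ratio of that pileup to the expected one. The fold is the authors' own value and only describes a peak within its list. A region absent from a list did not pass the caller's threshold, and the list gives no value for it. The Cre list held 13130 peaks and the GFP list 12873, with a median summit pileup of 12 fragments in both, and the background pileup was 1.06 times as high in Cre. At that background the lowest listed pileup was 7 fragments in either list. All 9 chondrocyte markers examined (Col2a1, Acan, Sox9, Col9a1, Col11a1, Comp, Matn3, Hapln1 and Cnmd) had peaks in both lists, over 33533 bp in Cre and 42810 bp in GFP. Such peaks in both lists were found at 19.7% of all protein-coding genes.

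Collagens are the main structural proteins of the extracellular matrix, built from chains that wind into a triple helix. Fibrillar types I, III and V form the fibres of bone, skin, tendon and perichondrium, while cartilage fibrils are built from types II, IX and XI. Type VI forms beaded filaments and is concentrated in the pericellular matrix around each chondrocyte, FACIT collagens sit on the surface of fibrils, type IV forms the sheet of basement membranes, and type X is laid down by hypertrophic chondrocytes. Type I collagen is a familiar product of chondrocytes that lose their phenotype in culture.

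Of the 37 collagen genes, 14 had a peak in at least 1 list, which is 37.8% with an exact Clopper-Pearson 95% interval of 22.5% to 55.2%, beside 32.4% of all protein-coding genes. Peaks in both lists were found at 6 genes (Col3a1, Col5a2, Col6a1, Col6a2, Col6a3 and Col12a1), or 16.2% with an interval of 6.19% to 32.0%, beside 19.7% of all genes. Peaks in the Cre list alone were found at 4 genes (Col14a1, Col17a1, Col24a1 and Col25a1), or 10.8%, where the background was 6.31%. Peaks in the GFP list alone were also found at 4 genes (Col1a2, Col7a1, Col16a1 and Col19a1), where the background was 6.38%. All 4 background shares lie inside the intervals of the collagen genes, which cover counting error only. The 6 genes with peaks in both lists became 10 with 50 kb on each side and 1 where the −log10 q-value had to reach 10. The collagen genes are long, with a median of 122155 bp against 17169 bp for all genes. Among the 19 collagen genes of at least that median length, 6 had a peak (31.6%), beside 36.7% of all genes of that length. The cartilage collagens differed in level: 7 of 7 had peaks in both lists.

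**Figure D1:**
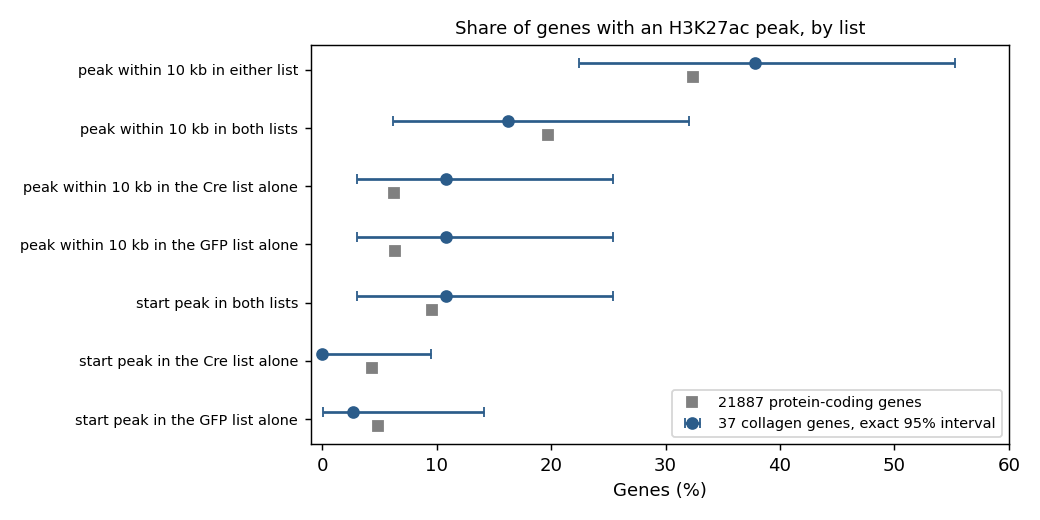
Share of genes, in percent, with an H3K27ac peak in either list, in both lists or in 1 list alone, for the 37 collagen genes (circles, bars giving exact 95% intervals) and for all 21887 protein-coding genes (squares). All 7 squares lie within the intervals of the circles.

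Peaks at transcription starts were fewer. A peak within 1 kb of the start was present in both lists at 4 collagen genes (Col5a2, Col6a1, Col6a2 and Col6a3), or 10.8%, beside 9.64% of all genes. No collagen gene had a start peak in the Cre list alone (0%, interval 0% to 9.49%), beside 4.32% of all genes, and Col1a2 was the only collagen gene with a start peak in the GFP list alone (2.70%, interval 0.0684% to 14.2%), beside 4.9%. Start sites were matched for 30 of the 37 genes in a RefSeq promoter table of GRCm38.p6, the same coordinates as mm10. For the other 7 (Col1a1, Col4a3, Col5a2, Col12a1, Col14a1, Col22a1 and Col26a1) either annotated end of the gene was accepted, so a start peak at Col5a2 means a peak near its higher-coordinate end.

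In all, 33 Cre peaks covered 9010 bp and 41 GFP peaks covered 10405 bp at the collagen genes. The Cre share was 44.6% of the peaks (interval 33.0% to 56.6%) and 46.4% of the covered length, where over all genes it was 49.9% and 49.5%. Under stricter thresholds the larger share passed to Cre, on small counts of peaks. Where the −log10 q-value had to reach 5, 23 Cre and 22 GFP peaks remained (51.1% of peaks and 50.9% of length). Where it had to reach 10, 5 and 4 remained (55.6% and 54.8%). With at least 15 fragments at the summit 9 and 7 remained (56.3% and 55.6%). In the top 5000 peaks of each list Cre held 54.2% of the peaks (13 against 11) and 49.1% of the length. The whole lists leaned likewise, with 1840 Cre and 2120 GFP peaks of 7 to 9 fragments and 1797 and 1636 of 16 to 21. Which library held more thus depended on the threshold. Each within its own list, the mean fold was 6.47 for the Cre peaks and 6.30 for the GFP peaks, with pileups from 9 to 18 and from 8 to 21 fragments. Of the 14 genes with a peak, the covered length was greater in Cre at 7, beside 49% of all genes with a peak, and greater in GFP at 7, beside 50.9%. Among the 6 genes with peaks in both lists, the length was at least 2-fold greater in Cre at 1 (Col3a1), beside 14.9% of all such genes, and at least 2-fold greater in GFP at 2 (Col6a2 and Col12a1), beside 15.4%. The group shared no direction. The cartilage collagens had 88 Cre and 115 GFP peaks, with a greater covered length in GFP at 7 of 7 genes. Per kb of gene and flank the collagen genes averaged 4.01 bp in Cre and 4.63 bp in GFP, the cartilage collagens 44.6 and 59.5 bp, and all genes 3.58 and 3.71 bp. Among the 37 genes Col6a1 was the highest, at 81.4 bp in Cre and 76.1 bp in GFP, and weighed heavily on their means. The median over the 37 genes was 0, since 23 had no peak. For all protein-coding genes the median was 0 in both lists as well.

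**Figure D2:**
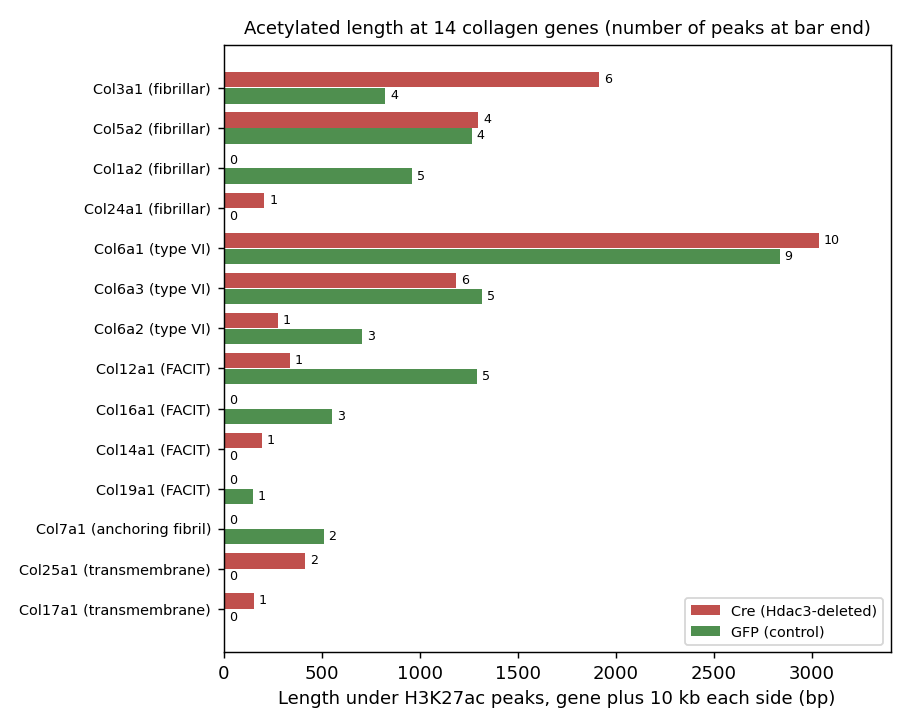
Length under H3K27ac peaks in bp (horizontal axis) at the 14 collagen genes with a peak, grouped by class, in the Cre library (red) and the GFP library (green); the number at each bar is the number of peaks. Col6a1 was long in both libraries, Col1a2 was bare in Cre, and Col3a1 was longer in Cre.

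Among the fibrillar collagens, Col3a1, Col5a2, Col1a2 and Col24a1 had peaks and Col1a1, Col5a1 and Col5a3 had none. The class held 11 Cre peaks over 3419 bp and 13 GFP peaks over 3050 bp, a Cre share of 52.9% of the covered length. It was 81.7% over the top 5000 peaks of each list, from 1046 bp in Cre and 235 bp in GFP. The share was below an even split at 48.0% in the gene bodies alone, 46.5% with 50 kb on each side and 40.4% without Col3a1. The near-even share of 52.9% was made of genes with opposite differences: the length was greater in Cre at 3 genes and greater in GFP at 1. The main differences were at Col3a1 (1913 bp in Cre, 824 bp in GFP) and Col1a2 (0 and 961 bp). Of the other genes with more in Cre, Col5a2 was nearly even (1299 and 1265 bp) and Col24a1 had a single peak of 207 bp. The promoters of Col1a2, Col3a1 and Col5a1 are shown because these genes differ in where their peaks lay, with peaks in GFP alone, peaks inside the gene in both lists, and no peak. The bases just before the start are printed 5′ to 3′ on the gene's strand from the RefSeq table of GRCm38.p6, and capitals mark CCAAT in Col1a2, TATAAA in Col3a1 and, read on either strand, GGGCGG in Col1a2 and Col5a1. The windows are chr6:4505368-4505617 for Col1a2, chr1:45311288-45311537 for Col3a1 and chr2:27886175-27886380 for Col5a1, each on the plus strand.
Col1a2: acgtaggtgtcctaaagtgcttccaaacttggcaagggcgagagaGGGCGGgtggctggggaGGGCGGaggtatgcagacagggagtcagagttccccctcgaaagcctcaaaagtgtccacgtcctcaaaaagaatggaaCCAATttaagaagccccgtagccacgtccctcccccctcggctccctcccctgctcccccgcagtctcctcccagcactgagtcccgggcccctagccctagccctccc
Col3a1: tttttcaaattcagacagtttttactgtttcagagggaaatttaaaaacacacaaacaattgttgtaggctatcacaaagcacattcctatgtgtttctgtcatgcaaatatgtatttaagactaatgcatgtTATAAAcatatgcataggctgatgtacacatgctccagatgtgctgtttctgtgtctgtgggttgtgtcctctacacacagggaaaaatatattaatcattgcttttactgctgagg
Col5a1: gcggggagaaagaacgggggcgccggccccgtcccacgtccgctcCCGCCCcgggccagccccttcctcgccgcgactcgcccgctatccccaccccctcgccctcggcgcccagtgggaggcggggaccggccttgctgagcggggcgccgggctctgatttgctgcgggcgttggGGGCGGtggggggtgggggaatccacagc
Neither list had a peak over any base of these windows. The Col1a2 window held CCAAT 109 to 105 bases before the start and GGGCGG at 205 to 200 and 188 to 183 bases. The Col3a1 window, poor in GC at 35.2% and without a CpG, held TATAAA 117 to 112 bases before the start. For Col5a1, the gene without a peak, positions count from the start site of the promoter table, at 27886425. It had GGGCGG 205 to 200 and 73 to 68 bases before that site, with 76.4% GC and 28 CpG over the 250 bases before it. The printed window ends earlier, at 27886380, so the GC and CpG values take in bases that are not printed.

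Col1a2, the alpha 2 chain of type I collagen (chr6:4505618-4541543, plus strand), had no Cre peak and 5 GFP peaks over 961 bp. The GFP summits lay 604, 882, 1636, 16815 and 18761 bp into the gene, with pileups of 11, 12, 11, 9 and 9 fragments and folds of 6.16, 6.67, 6.16, 5.13 and 5.13. The list of Cre peaks had none within 1 kb of any of them. All 5 were of modest height: 11 fragments have an exact Poisson 95% interval of 5.49 to 19.7, and 7 fragments sufficed for a peak at background. Over all genes, 750 had at least 5 GFP peaks and 10 of those (1.33%) had no Cre peak, while 18 of the 789 genes with at least 5 Cre peaks (2.28%) had no GFP peak. Among the 215 genes with exactly 5 GFP peaks, as at Col1a2, 6 (2.79%) had no Cre peak. Of the 243 genes with exactly 5 Cre peaks, 8 (3.29%) had no GFP peak. Col1a1, which codes for the alpha 1 chain of the same protein (chr11:94936224-94953042), had no peak in either list, and the nearest peaks were 282258 bp away in Cre and 282262 bp away in GFP, at Mrpl27 in both.

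Col3a1, the chain of type III collagen (chr1:45311538-45349706, plus strand), had 6 Cre peaks over 1913 bp and 4 GFP peaks over 824 bp, 2.32 times the length in Cre. Both lists had peaks in the early part of the gene. In Cre those summits lay 1123, 2420, 3070 and 4133 bp past the start with pileups of 12, 14, 17 and 14 fragments, and in GFP they lay 2411, 3719 and 4193 bp past it with pileups of 12, 12 and 13. The highest Cre peak, of fold 8.89 at 3070 bp, had no overlapping GFP peak, though a GFP peak lay within 1 kb of it. The remaining peaks were not shared: Cre had summits 43957 and 44986 bp from the start, past the end of the gene, with 11 and 12 fragments, and GFP had a summit at 27257 bp with 10 fragments. Bases under a peak in both lists numbered 317, which is 16.6% of the Cre length and 38.5% of the GFP length. With 10 kb on each side Col3a1 had the largest difference in covered length of any of the collagen genes. In the gene body alone its lengths were 1314 bp in Cre and 824 bp in GFP, a smaller difference than at Col1a2 (0 and 961 bp).

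Col5a2, a chain of type V collagen that regulates fibril width (chr1:45374331-45503282), lies beside Col3a1 and was nearly even, with 4 peaks over 1299 bp in Cre and 4 over 1265 bp in GFP. All 8 lay near the gene's higher-coordinate end. Cre summits were 1854, 1483, 1029 and 385 bp inside that end with pileups of 14, 10, 12 and 12, and GFP summits were 2420, 1847, 1189 and 926 bp inside it with pileups of 15, 11, 13 and 11. In each list 3 of the 4 peaks overlapped the other list. Its partner chains in type V, Col5a1 and Col5a3, had no peak, with the nearest 67208 bp (Cre) and 99841 bp (GFP) from Col5a1 and 63448 bp and 72628 bp from Col5a3. Col24a1, a fibrillar collagen of developing bone, had a single Cre peak of 207 bp with 13 fragments, 130349 bp inside the gene, and no GFP peak.

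Markers of the other cells that make fibrillar collagen mostly had no peak in either list. Of 6 fibroblast markers (Pdgfra, Thy1, Twist2, Prrx1, Dpt and Fap), 2 had a peak. A peak in at least 1 list was found at 32.4% of all protein-coding genes. Prrx1 had 13 Cre and 8 GFP peaks and Fap had 2 and 0, and summed over the list the covered length was 3873 bp in Cre and 2137 bp in GFP. Of 7 osteoblast markers, Runx2 and Sp7 had peaks, over 830 bp in Cre and 1646 bp in GFP, and Alpl, Ibsp, Bglap, Bglap2 and Dmp1 had none. None of the 3 tendon markers (Scx, Mkx and Tnmd) had a peak in either list. Prrx1 alone gave 3515 bp of the fibroblast sum in Cre and all 2137 bp of it in GFP. The osteoblast sum came from Runx2 and Sp7 alone. The part of such cells in the results at Col3a1 and Col1a2 was not tested. In bulk cultures fewer cells of a type and less of the mark per cell cannot be told apart.

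Type VI had the most peaks per gene of the collagen classes in both libraries. Its 6 genes held 17 Cre peaks over 4494 bp and 17 GFP peaks over 4855 bp, a Cre share of 48.1% of the covered length (50.4% without Col6a2). The mean fold was 6.56 within the Cre list and 7.05 within the GFP list. All of the covered length lay at Col6a1, Col6a2 and Col6a3, the chains that make up the common form of type VI. Col6a4, Col6a5 and Col6a6, which can take the place of the alpha 3 chain, had no peak, and the nearest peaks to Col6a4 were 63139 bp (Cre) and 63127 bp (GFP) away at Glyctk. The promoters of these 3 chains are shown because they are the ones with a start peak in both lists and a known strand. The windows are chr10:76726045-76726294 for Col6a1, chr10:76623631-76623880 for Col6a2 and chr1:90844002-90844221 for Col6a3, all on the minus strand of GRCm38.p6 and read 5′ to 3′ toward the gene. Capitals mark TGANTCA in Col6a1 and GGGCGG, read on the opposite strand, in Col6a2.
Col6a1: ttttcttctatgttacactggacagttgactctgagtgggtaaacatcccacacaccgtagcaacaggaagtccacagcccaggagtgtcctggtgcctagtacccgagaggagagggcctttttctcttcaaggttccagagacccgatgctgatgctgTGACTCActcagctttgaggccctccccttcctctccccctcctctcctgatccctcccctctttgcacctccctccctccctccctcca
Col6a2: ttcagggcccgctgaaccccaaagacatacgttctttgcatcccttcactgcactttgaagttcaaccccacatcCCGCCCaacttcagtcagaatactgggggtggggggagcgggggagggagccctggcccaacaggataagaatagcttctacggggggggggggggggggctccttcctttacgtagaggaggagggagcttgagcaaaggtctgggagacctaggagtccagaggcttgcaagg
Col6a3: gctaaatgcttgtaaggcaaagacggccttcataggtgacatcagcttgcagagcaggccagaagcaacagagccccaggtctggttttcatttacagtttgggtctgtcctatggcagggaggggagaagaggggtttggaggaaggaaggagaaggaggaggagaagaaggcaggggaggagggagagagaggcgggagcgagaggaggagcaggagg
A Cre peak covered 129 of the 250 bases of the Col6a1 window and no GFP peak covered any, while the windows of Col6a2 and Col6a3 lay outside the peaks of both lists. TGANTCA, the core of the AP-1 motif, stood 90 to 84 bases before the Col6a1 start. GGGCGG stood 175 to 170 bases before the Col6a2 start, and the Col6a3 window held none of the motifs searched.

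Col6a1 (chr10:76708792-76726044, minus strand) had the longest covered length of the 37 genes, also per kb of gene and flank, at 81.4 bp in Cre and 76.1 bp in GFP. It had 10 Cre peaks over 3033 bp and 9 GFP peaks over 2835 bp, and 8 of each overlapped the other list. Bases under a peak in both lists numbered 1890, or 62.3% of the Cre length and 66.7% of the GFP length. At the start, Cre summits lay 486 and 177 bp inside the gene and 434 and 1193 bp before it, with pileups of 15, 9, 18 and 11, while GFP summits lay 299 bp inside and 779 bp before, with pileups of 16 and 13. The tallest Cre start peak therefore stood upstream of the start and the taller GFP one inside the gene.

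A further cluster lay upstream of Col6a1. In Cre it held 5 peaks over 1762 bp (chr10:76729383-76732397) and in GFP 6 peaks over 2023 bp (chr10:76729306-76732389), with summits 3840 to 6225 bp and 3589 to 6194 bp before the start. The Cre pileups in order away from the gene were 18, 18, 15, 13 and 16 fragments, and the GFP pileups were 14, 20, 10, 21, 8 and 17. Every peak of this cluster overlapped a peak of the other list. Within the GFP list the peak of 21 fragments had the highest fold at the collagen genes, 11.3. Within the Cre list the highest was 9.46, at peaks of 18 fragments. Those pileups have Poisson intervals of 13 to 32.1 for 21 fragments and 10.7 to 28.4 for 18, which overlap. The nearest other gene, Pcbp3, was at least 29585 bp from the cluster. On the far side of the gene each list had a single low peak, of 10 fragments in Cre and 8 in GFP, and they did not overlap.

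**Figure D3:**
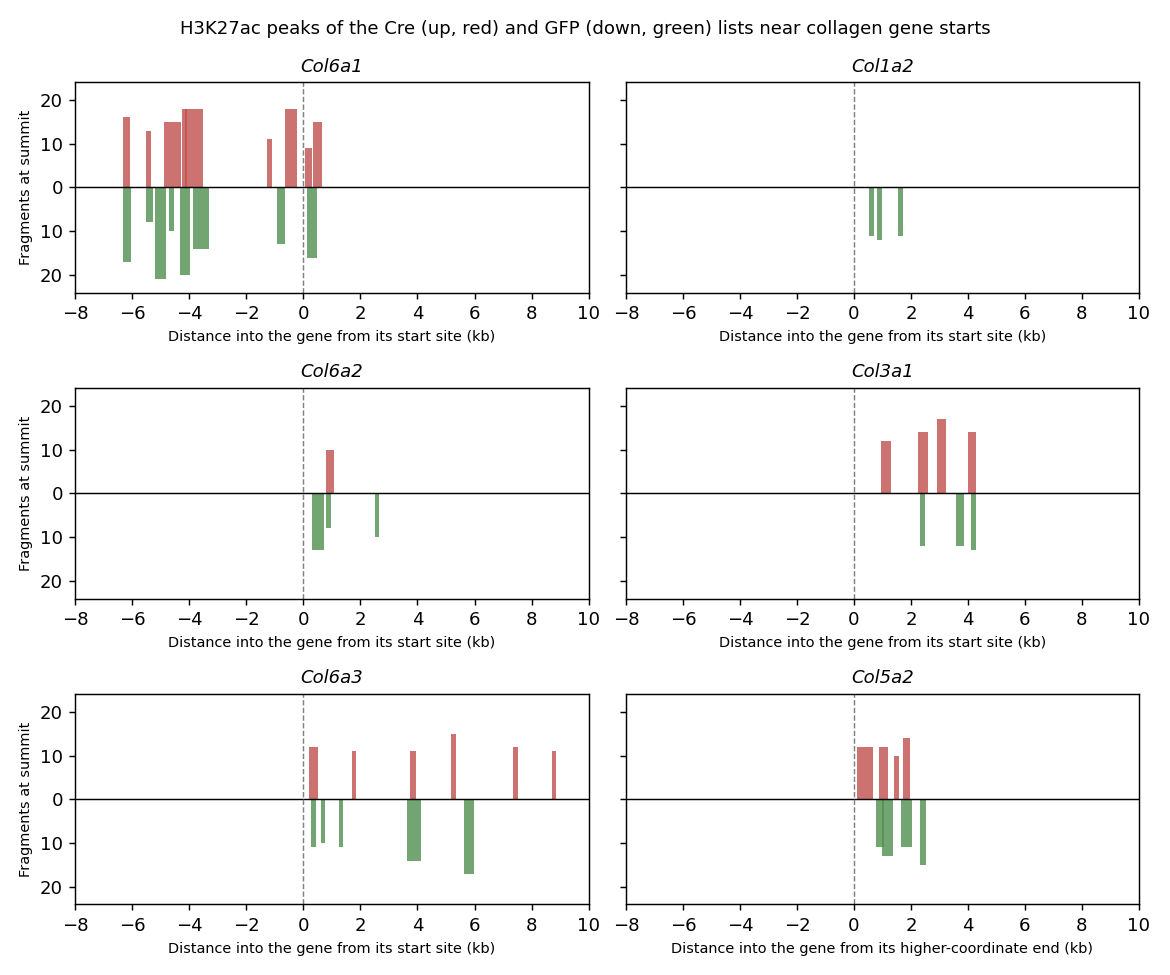
Peaks of the Cre list (red, upward) and the GFP list (green, downward) around the starts of 6 collagen genes. Each bar is centred on a peak's summit and about as wide as the peak, with its height at the summit pileup in fragments. Bars thus do not mark exact peak ends, and overlap between lists cannot be read from them. The horizontal axis is the distance into the gene in kb from its nearest start site in the promoter table (from the higher-coordinate end for Col5a2). For Col6a2 and Col6a3 that site lies inside the annotated gene, so the Col6a2 distances are shorter than those in the text. The upstream cluster of Col6a1 appears in both lists between 3.6 and 6.2 kb before the start, and the 3 bars of Col1a2 are all GFP.

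Col6a2 (chr10:76595756-76623630, minus strand) had 1 Cre peak of 276 bp and 3 GFP peaks over 705 bp, 2.55 times the length in GFP. Counted from the annotated beginning of the gene, the Cre summit lay 1153 bp into it with 10 fragments. The GFP summits lay 729, 1099 and 2809 bp into the gene with 13, 8 and 10 fragments. The one at 1099 bp overlapped the Cre peak. With 50 kb on each side the lengths were 1415 bp in Cre and 1892 bp in GFP, and where the −log10 q-value had to reach 5 only GFP kept a peak, of 403 bp. Both lists thus marked the beginning of the gene, and the peaks that set the difference had counts of 8 to 13 fragments.

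Col6a3 (chr1:90766860-90844001, minus strand) had 6 Cre peaks over 1185 bp and 5 GFP peaks over 1315 bp. Positions in Col6a3 count from the start site of the promoter table, at 90843971. From there inward, Cre summits lay at 354, 1767, 3833, 5268, 7437 and 8786 bp with pileups of 12, 11, 11, 15, 12 and 11. GFP summits lay at 361, 683, 1326, 3873 and 5795 bp with pileups of 11, 10, 11, 14 and 17. Peaks coincided at the start and near 3.8 kb, 2 of each list. The Cre peaks reached farther into the gene and the tallest GFP peak, of fold 9.23, stood at 5795 bp. The shared bases numbered 339, or 28.6% of the Cre length and 25.8% of the GFP length, a smaller share of each than at Col6a1.

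The FACIT collagens had 2 Cre peaks over 531 bp and 9 GFP peaks over 1991 bp, a Cre share of 21.1% of the covered length. By number of peaks the Cre share was 18.2%, with an interval of 2.28% to 51.8% that takes in an even split. The share of the length was 38.9% with 50 kb on each side (6790 bp against 10671 bp) and 0% in the top 5000 peaks or where the −log10 q-value had to reach 5. With 50 kb, 5047 bp of that Cre length and 7448 bp of that GFP length came from the Col19a1 window. That window reaches into Col9a1, a cartilage collagen gene. The class was not uniform, since the length was greater in GFP at Col12a1, Col16a1 and Col19a1 and greater in Cre at Col14a1. Col20a1 and Col22a1 had no peak, and no gene named Col21a1 was matched in the gene table. Col12a1, a large fibril-associated collagen of dense connective tissue (chr9:79598987-79721141), had 1 Cre peak of 338 bp and 5 GFP peaks over 1291 bp, 3.82 times the length in GFP. The Cre peak, of 10 fragments, lay 10078 bp inside the gene's lower-coordinate end and overlapped a GFP peak of 13 fragments there, beside another of 12. The other 3 GFP peaks lay 8036, 4457 and 3913 bp inside the higher-coordinate end with 8, 9 and 9 fragments, and Cre had none within 1 kb of them. With 50 kb on each side the lengths were 526 bp in Cre and 1291 bp in GFP, and where the −log10 q-value had to reach 5 they were 0 and 600 bp.

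The remaining FACIT peaks were few, and most lay nearer to another gene. Col14a1, which codes for another fibril-associated chain, had 1 Cre peak of 193 bp with 10 fragments, 9886 bp beyond the gene's higher-coordinate end and 3406 bp from Mrpl13, a mitochondrial ribosomal protein gene. Col16a1 had 3 GFP peaks over 553 bp, of which 1 with 10 fragments lay 1730 bp before its start and 2, with 8 and 10 fragments, lay inside Pef1. The GFP peak of 147 bp counted for Col19a1, with 14 fragments, lay inside Col9a1, a cartilage collagen gene, and with 50 kb on each side the Col19a1 window took in 5047 bp in Cre and 7448 bp in GFP. These 4 peaks outside the collagen genes (1 at Mrpl13, 2 at Pef1 and 1 at Col9a1) entered only through the flanking 10 kb. Col12a1 and the upstream peak of Col16a1 were what was left of the class once peaks nearest to other genes were set aside.

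Outside these classes the peaks were scattered and belonged to a single list each. The transmembrane collagens had 3 Cre peaks over 566 bp and no GFP peak. Col17a1, a component of hemidesmosomes in epithelium, had 1 of them, of 152 bp with 17 fragments and fold 8.96, 32778 bp into the gene. Col25a1, a transmembrane collagen best known from neurons and muscle innervation, had the other 2, with 14 and 13 fragments and folds of 7.47 and 4.19. They lay 148477 and 148881 bp from the annotated beginning of the gene. With 50 kb on each side Col17a1 had the greater length in GFP, 935 bp against 329 bp in Cre. With 3 peaks the interval of the Cre share of peaks ran from 29.2% to 100%, and with 50 kb on each side Cre held 54.0% of the covered length. Col13a1 and Col23a1 of the same class had no peak. Col7a1, the collagen of the anchoring fibrils below epithelium, had 2 GFP peaks over 509 bp, with 10 and 15 fragments, both inside the neighbouring gene Pfkfb4 rather than in Col7a1.

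Basement membrane collagens carried no peak in either list: none of Col4a1, Col4a2, Col4a3, Col4a4, Col4a5, Col4a6, Col15a1 and Col18a1 had one. Of all protein-coding genes, 32.4% had a peak in at least 1 list, so genes without a peak were the majority. For the 6 type IV genes the nearest peak was 155660 to 2027541 bp away in Cre and 97348 to 2347158 bp away in GFP, and for 5 of the 6 it was over 100 kb away in both. Col4a1, which shares a promoter region with Col4a2 in a head-to-head pair, was 466088 bp from a Cre peak and 1488794 bp from a GFP peak. Col15a1 and Col18a1, whose C-terminal fragments are known as endostatin-like peptides, were nearer to peaks, at 91683 and 90893 bp for Col15a1 (by Tgfbr1) and 93244 and 93379 bp for Col18a1 (by Pofut2). The 4 endothelial markers examined (Pecam1, Cdh5, Kdr and Tek) had no peak in either list. The part of such cells in the type IV result was not tested. For a region without a peak the lists hold no pileup, so a level below the caller's threshold was not detectable.

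Col10a1, the marker of hypertrophic chondrocytes (chr10:34389981-34397085), had no peak in either list, and the nearest were 171840 bp away in Cre (by Dse) and 92822 bp away in GFP (by Tspyl4). The network-forming Col8a1 and Col8a2 had none within 10 kb. A GFP peak stood 17189 bp from Col8a1, by Cmss1, where the nearest Cre peak was 501423 bp away. Both lists had a peak by Trappc3, 24889 bp (Cre) and 24671 bp (GFP) from Col8a2. Over all 23 genes without a peak, 4 had a peak within 50 kb in either list and 10 had none within 100 kb in both. The closest were a Cre peak 11494 bp from Col23a1 and peaks of both lists 15156 bp (Cre) and 14619 bp (GFP) from Col20a1, by Arfgap1.

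**Figure D4:**
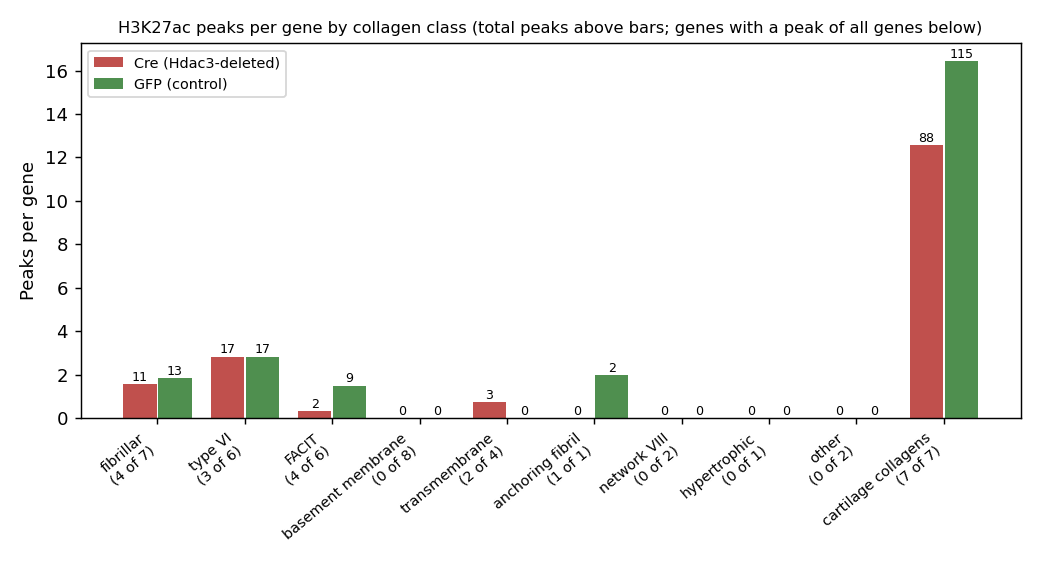
Mean number of H3K27ac peaks per gene (vertical axis) for each collagen class in the Cre library (red) and the GFP library (green), with the total number of peaks over each bar and the genes with a peak of all genes under it. Type VI had the most peaks per gene of the collagen classes apart from the cartilage collagens shown at the right, and the 8 basement membrane genes had none.

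Peaks at the collagen genes were compared between the lists. Of the 33 Cre peaks, 17 overlapped a GFP peak by at least 1 bp, or 51.5% (interval 33.5% to 69.2%), beside 40.7% of the whole Cre list. Of the 41 GFP peaks, 17 overlapped a Cre peak, or 41.5% (interval 26.3% to 57.9%), beside 41.4% of the whole GFP list. Overlap went with pileup in the whole lists, from 29.7% of Cre peaks of 10 to 12 fragments to 69.9% of those of 16 to 21. At the collagen genes it was 6 of 16 Cre peaks of 10 to 12 fragments and 4 of 6 of those of 16 to 21. For GFP the collagen counts were 2 of 9 peaks of 7 to 9 fragments, 5 of 17 of 10 to 12 and 4 of 5 of 16 to 21. Low peaks seen in a single list were common in the whole lists. The 5 GFP peaks at Col1a2, of 9 to 12 fragments, are of the heights at which 22.2% (7 to 9 fragments) and 31.3% (10 to 12 fragments) of all GFP peaks overlapped a Cre peak.

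Most peaks lay at a start or inside a collagen gene. In Cre, 7 peaks overlapped the 1 kb around a start, and of the others 16 had the summit inside a gene and 10 outside. For GFP the numbers were 9, 19 and 13. The nearest protein-coding gene was one of the 37 for 32 of 33 Cre peaks (97.0%) and 36 of 41 GFP peaks (87.8%). The exceptions are the peaks by Mrpl13, Pef1, Col9a1 and Pfkfb4 described above.

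The promoters of the collagen genes were compared with all promoters of the RefSeq table over the 250 bases before the start. The 30 matched collagen promoters had a median GC content of 59% and a median of 10 CpG, beside 52.4% and 6 for all 32851 promoters. The 4 with a start peak and a known strand (Col1a2, Col6a1, Col6a2 and Col6a3) had 3 to 11 CpG with a median of 4.5, and the 26 without had a median of 10, so CpG-rich collagen promoters such as that of Col5a1 and of Col4a1 (31 CpG) were among those without a peak. Searched on both strands, GGGCGG, the core of the Sp1 motif, stood in 17 collagen promoters (56.7%), beside 32.7% of all promoters, and CCAAT in 11 (36.7%), beside 33.8%. TATAAA stood in 4 (13.3%), beside 12.4%, and TGANTCA in 1, that of Col6a1 (3.33%), beside 6.75%. ACAAT, the core of the SOX motif, stood in 2 (6.67%), of which Col3a1 was 1, beside 27.7% of all promoters. A match describes the letters of a window and not a bound site.

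Genes whose products modify, fold, cut and cross-link collagen chains were read in the same windows. Of 29 such genes, 14 had peaks in both lists, 5 in Cre alone, 1 in GFP alone and 9 in neither. Among all protein-coding genes the shares were 19.7% in both lists, 6.31% in Cre alone and 6.38% in GFP alone. The covered length was greater in Cre at 10 and in GFP at 10. For all genes with a peak it was greater in Cre at 49% and in GFP at 50.9%. P3h4 and Fkbp10 had the same 4 Cre and 4 GFP peaks in their windows and were each counted as a gene. Plod2, the lysyl hydroxylase of collagen telopeptides, had 31 Cre peaks over 7295 bp and 33 GFP peaks over 8312 bp. Serpinh1, the collagen chaperone Hsp47, had 10 over 2431 bp and 15 over 4952 bp. P4ha1, the prolyl 4-hydroxylase subunit, had 5 over 1473 bp and 10 over 1991 bp, whereas its paralogue P4ha2 had 3 Cre peaks over 840 bp, one at the start, and none in GFP. Loxl3, a cross-linking lysyl oxidase, had 7 over 1715 bp in Cre and 3 over 1025 bp in GFP, and Lox itself had no peak. The list did not move one way between the libraries.

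Of 10 collagen receptor genes, 4 had peaks in both lists (Itga10, Itgb1, Ddr1 and Ddr2), 2 in GFP alone (Itga1 and Mrc2) and 4 in neither (Itga2, Itga11, Lair1 and Gp6). The shares over all protein-coding genes were 19.7% in both lists and 6.38% in GFP alone. Ddr2, the receptor tyrosine kinase for fibrillar collagen, had 18 Cre peaks over 4794 bp and 15 GFP peaks over 3877 bp. Itga10, the integrin chain that chondrocytes use to bind collagen, had 5 Cre peaks over 932 bp and 4 GFP peaks over 985 bp. Summed over the list, 28 Cre peaks covered 6523 bp and 27 GFP peaks covered 6975 bp, close to even.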

How the data were processed

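Peak lists of 1 Cre and 1 GFP library were used as deposited. Per the submitters' processing notes the build was mm10 and the tools were Picard, BWA, SICER and bcl2fastq 1.8.4, with no roles stated. The deposited lists have the MACS2 column order; which version, settings and control library were used is not given in the sources used here. The deposited score equalled the −log10 q-value times 10, truncated, in 100% of rows. The authors' fold is a ratio at the summit with 1 added to the observed and the expected pileup, and the deposited −log10 p-value is a Poisson tail at the same place. Solving fold and −log10 p-value together gave whole-number pileups, within 0.001, for 100% of peaks. The total number of reads is not given here, so the precision of a peak was read from its pileup, 7 to 63 fragments in Cre and 7 to 58 in GFP. The recovery and the interval arithmetic were tested on simulated data.

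Samples were grouped by the transduction label. Genes came from a RefSeq table of GRCm38.p6, and positions are 1-based mm10 coordinates. A gene's window was its body with 10 kb on each side, and peaks or bases in several windows were counted once over a class. Start windows reached 1 kb to each side of the start site. Of all protein-coding genes 17492 had a start site in the promoter table, and either gene end was used for the rest. Some genes had more than 1 start site there. Unless stated otherwise, distances from a start count from the nearest such site. Promoter windows printed in the report end where the annotated gene begins. Intervals are exact 95% Clopper-Pearson or Poisson intervals, which cover counting error only, since nearby peaks and amplified fragments are not independent. There was no test, as each group had 1 library.

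Every collagen gene is accounted for: those with a peak are described and the others named. Other windows, significance and pileup thresholds, peak merging and overlap rules were tried. The rule takes collagen genes by symbol alone, but the choice of collagens as the subject, and of the gene lists, was made with earlier results of these data known. RNA-seq named in the series' design was not used here. Python 3.11.15, numpy 2.4.6, pandas 2.3.3, scipy 1.17.1 and matplotlib 3.10.9 were used.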

Additional observations from a re-analysis of the deposited data

How the results depend on the processing

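Which library held the larger share depended on the settings: of 43 recomputed Cre shares of the collagen genes and their classes, 11 crossed an even split. By number of peaks (44.6%) they were 51.1% (23 Cre and 22 GFP peaks) and 55.6% (5 and 4) where the −log10 q-value had to reach 5 and 10. They were 54.2% (13 and 11) in the top 5000 peaks and 56.3% (9 and 7) with a pileup of at least 15. By covered length (46.4%) they were 50.9% and 54.8% at those q-values and 55.6% at that pileup. The fibrillar share (52.9%) was below it at 48.0% in gene bodies, 46.5% with 50 kb and 40.4% without Col3a1, and the type VI share (48.1%) was 50.4% without Col6a2. These moves were smaller than 50% of the width of the main value's 95% interval of the peak number, which is wide. Of 46 shares of single genes 1 crossed, that of Col17a1 (26% with 50 kb). Others moved widely, such as Col19a1 (0% to 40.4%) and Col6a2 (28.1% to 42.8%) with 50 kb. The Col19a1 window reaches into Col9a1, a cartilage collagen gene. The number of collagen genes with peaks in both lists, 6 as reported, was 10 with 50 kb, 3 with the top 5000 peaks of each list, 2 with a pileup of at least 15 and 1 where the −log10 q-value had to reach 10. Those in Cre alone, reported as 4, numbered 2 with the pileup threshold and 2 at that q-value. Those in GFP alone, also 4, numbered 1 in the gene body alone, 2 with peaks nearest to a collagen gene only, 2 with the pileup threshold and 1 at that q-value. Start peaks in both lists (4), Cre alone (0) and GFP alone (1) became 2, 1 and 2 where the −log10 q-value had to reach 5, and 0, 1 and 0 where it had to reach 10. With the top 5000 peaks 1 start was in both and 1 in Cre alone. With the pileup threshold 1 was in both and 0 in GFP alone. With 500 bp windows 2 were in both and 1 in Cre alone, and with 2.5 kb windows 2 were in GFP alone. Stricter thresholds leave fewer peaks by construction. The Cre share of covered length was 81.7% for fibrillar genes with the top 5000 peaks, from 1046 bp in Cre and 235 bp in GFP. For transmembrane genes with 50 kb it was 54.0%, from 1098 bp and 935 bp, and all of that GFP length lay in the Col17a1 window. The cause of these differences between the libraries was not tested. Overlap of Cre peaks was 24.2% when 50% of both peaks had to be shared and 69.7% within 1 kb, and that of GFP peaks 19.5% and 58.5%. Summit pileups of 8 to 21 fragments limit every difference at a single gene. The type IV genes alone gave no share, since no basement membrane gene had a peak. No paired analysis was possible because each group had 1 library.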
